A study of Homo sapiens with 4 samples.

Results

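The apelin system is made up of the receptor APLNR and its ligands APELA (also called ELABELA or Toddler) and APLN (apelin). The rows of the deposited RNA-seq table with these symbols gave 3 genes of 58365, with 1 row for each. The table holds 4 libraries from the H1 human embryonic stem cell line, an established line, all collected at day 2 of hematopoietic differentiation. All 4 cultures were in Custom mTeSR1 medium with activin A and BMP4, at 40 and 50 ng/ml per the labels, whereas the study's methods give these concentrations the other way round. The DMSO group (n = 2) received the solvent alone and the IWP2 group (n = 2) received IWP2, a small molecule that blocks Wnt secretion, at a dose not given in the sources used here. Both groups are of 1 cell line at 1 time point. Nothing in the labels says that replicates came from separate cultures, so p-values measure the spread between these libraries, which may be technical.

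APLNR is a G protein-coupled receptor at the cell surface, and APELA and APLN are secreted peptides cut from precursors that both bind it. APELA is known from pluripotent cells and from the embryo at gastrulation, when cells of the forming mesoderm carry APLNR, and APLN is best known from endothelium and heart. APLNR at the cell surface is also used to sort mesoderm from differentiating pluripotent cells, and the comparison of IWP2 with DMSO asks which genes of this step change when Wnt secretion is blocked.

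APLNR (ENSG00000134817) lies on the minus strand at chr11:57233577-57237314 in GRCh38, APELA (ENSG00000248329) on the plus strand at chr4:164877004-164898965 and APLN (ENSG00000171388) on the minus strand at chrX:129645259-129654937. In GENCODE release 29 all 3 are protein-coding and none overlaps another annotated gene. The coding transcripts have 1 to 2 exons for APLNR, 2 to 3 for APELA and 3 for APLN. The 250 bases before the RefSeq start site (GRCh38.p14) were read for both ligands, and APLNR was not in that promoter table. Each ligand held 1 copy of CTTTGT, a core sequence of the TCF/LEF factors that act in Wnt signaling and also the core that SOX factors bind. The 30 bases around each copy are shown, with CTTTGT in capitals, because IWP2 acts on the Wnt pathway.
APELA, chr4:164877148-164877177, plus strand, ending 1 base before the start: ccacagcacagagcaccggcaaCTTTGTct
APLN, chrX:129655144-129655173, minus strand, 217 to 188 bases before the start: aggccgcgcagcCTTTGTtgtggggccacc
CTTTGT on either strand was present in 4817 of 35116 promoters of the same length, or 13.7%. The other sequences searched on both strands were absent from these windows of both ligands. They were CTTTGA (TCF/LEF, in 11.2% of promoters), AGGTGT (T-box, 9.57%) and GTCTAG (SMAD, 4.92%). The window of APELA had 45.2% GC and 4 CpG dinucleotides and that of APLN 67.6% GC and 17 CpG, where the medians over all promoters were 58.0% and 11. The piece shown for APELA lies before the RefSeq start but inside the gene as GENCODE release 29 annotates it, because a transcript there starts farther upstream, and 76 of the 250 bases precede that start. These letters are a description of the windows and say nothing of whether a factor binds there.

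Values were FPKM, fragment counts scaled to transcript length and library total, and their depth in reads is unknown. Each library listed 13831 to 13926 genes at 1 FPKM or more, and mitochondrially encoded genes took 6.25% to 9.57% of the summed FPKM. Across the 15980 genes tested, Pearson's r between libraries was 0.975 within DMSO, 0.981 within IWP2 and 0.938 to 0.948 between the groups. In limma, with Benjamini-Hochberg adjustment and a threshold of 0.05, 1175 genes (7.35%) were called lower and 929 (5.81%) higher with IWP2, and the median log2 difference was -0.01. Both IWP2 libraries were below both DMSO libraries in 31.0% of the tested genes, and above both in 27.6%. Differences are of log2(FPKM + 1), IWP2 minus DMSO, which understates the change of genes at low FPKM.

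APLNR, the receptor, fell with IWP2 from one of the more abundant transcripts to a few FPKM. Its level was 380 and 512 FPKM in the DMSO libraries and 2.97 and 2.39 FPKM in the IWP2 libraries. The groups were far apart, since the lowest DMSO value was 128 times the highest IWP2 value, while the libraries of a group differed by 1.35 times in DMSO and 1.24 times in IWP2. The means were 446 ± 93.6 FPKM (SD, n = 2) with DMSO and 2.68 ± 0.412 FPKM (SD, n = 2) with IWP2, 166-fold lower. The log2 difference was -6.91 with an SE of 0.17 (limma, adjusted p = 0.000310). Among the levels of all 58365 genes in a library, APLNR ranked 201 and 158 with DMSO and 10943 and 11579 with IWP2. It had the largest fall of the 15980 genes tested, but ranked 9 with a pseudocount of 0.1, 2 after rescaling each library to the same total, and 4 or 2 without DMSO replicate 1 or 2. It was called lower under all 13 alternatives, with log2 differences from -7.32 to -5.86. In bulk RNA, fewer cells that express a gene and less of its RNA per cell cannot be told apart.

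APELA, a ligand of APLNR, moved the other way and was higher with IWP2. Its level was 7.86 and 4.17 FPKM in the DMSO libraries and 59.4 and 60.6 FPKM in the IWP2 libraries. The IWP2 libraries lay close together, the DMSO libraries differed by 1.88 times, and the lowest IWP2 value was 7.56 times the highest DMSO value. The means were 6.02 ± 2.61 FPKM (SD, n = 2) with DMSO and 60.0 ± 0.866 FPKM (SD, n = 2) with IWP2, 9.97-fold higher. The log2 difference was 3.17 with an SE of 0.26 (limma, adjusted p = 0.00362). It ranked 9 among the rises of the genes tested, but 55 with a pseudocount of 0.1, 12 after rescaling each library to the same total, 22 without DMSO replicate 2, and 20 or 16 without IWP2 replicate 1 or 2. SOX2, a pluripotency factor, ranked 1 at 4.96. APELA was called higher under 10 of 13 alternatives. The call was lost without IWP2 replicate 1 (adjusted p = 0.0893), without IWP2 replicate 2 (adjusted p = 0.0933) and with no filter on low values (adjusted p = 0.0608), while the difference stayed between 2.58 and 3.56 in all 13.

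APLN, the other ligand, was near the bottom of the measured range in both groups. Its level was 0.0739 and 0.0663 FPKM with DMSO and 0.0403 and 0.0466 FPKM with IWP2. Both IWP2 values were below both DMSO values, but all 4 were under 0.1 FPKM. The means were 0.0701 ± 0.00542 FPKM (SD, n = 2) and 0.0435 ± 0.00450 FPKM (SD, n = 2), a log2 difference of -0.04. With a mean of 0.0568 FPKM over the 4 libraries it was below the minimum of 0.5 FPKM for testing, and without that minimum its adjusted p in limma was 0.556. A change in APLN was therefore not detectable in these libraries.

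**Figure D1:**
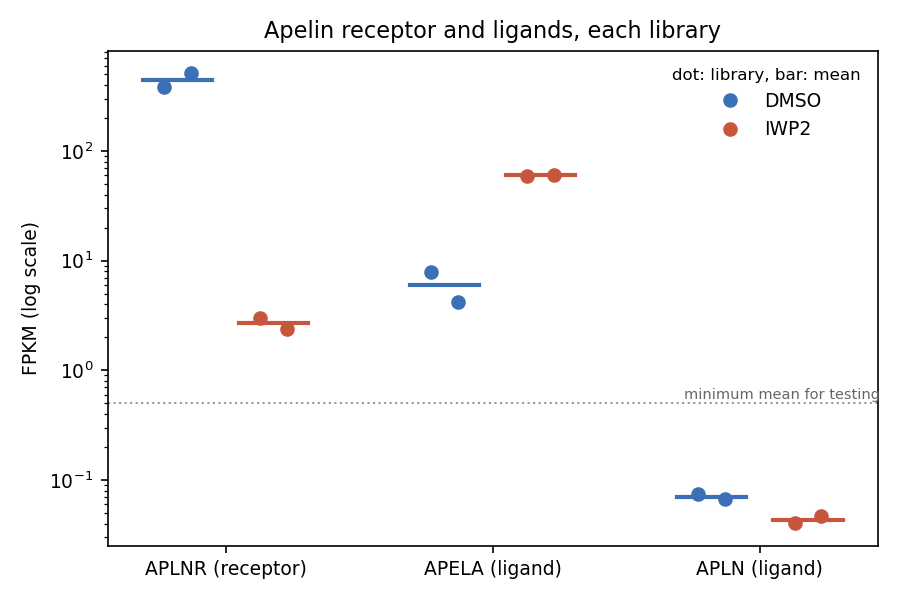
FPKM (vertical axis, log scale) of APLNR, APELA and APLN in each library, with DMSO in blue and IWP2 in red, dots for libraries, short bars for group means and a dotted line at the 0.5 FPKM minimum for testing. APLNR drops from 380 and 512 to 2.97 and 2.39 FPKM, APELA goes from 7.86 and 4.17 to 59.4 and 60.6 FPKM, and APLN stays under 0.1 FPKM.

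**Figure D2:**
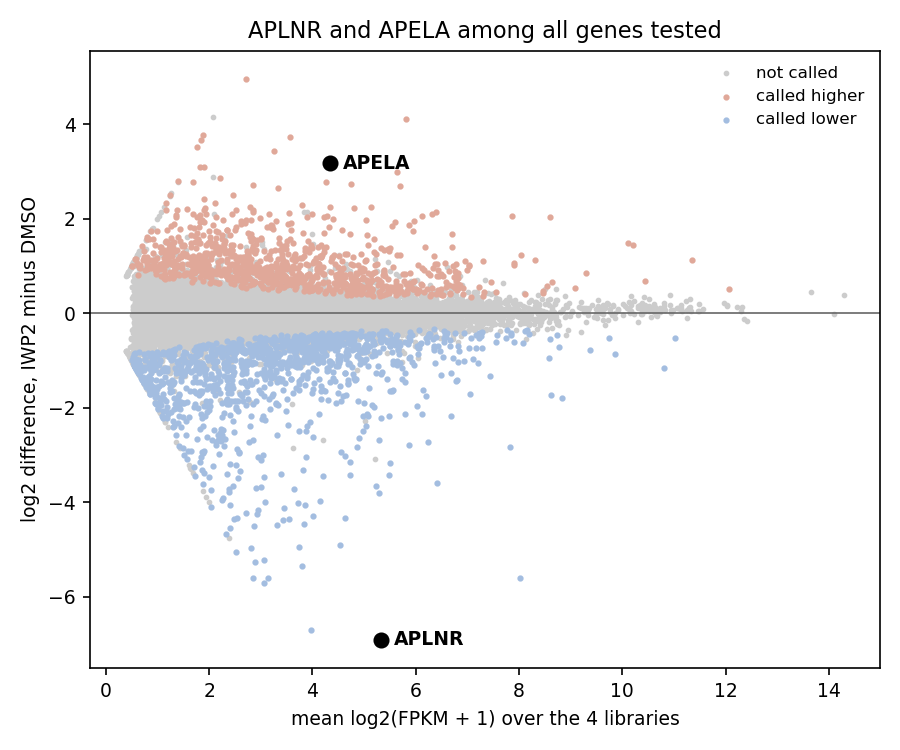
Log2 difference, IWP2 minus DMSO (vertical axis), against mean log2(FPKM + 1) over the 4 libraries (horizontal axis) for the 15980 genes tested, with called genes in red (higher) or blue (lower), others in grey, and APLNR and APELA in black. APLNR sits at the lower edge at -6.91 and APELA among the highest rises at 3.17.

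The receptor and its ligand APELA changed places in abundance. In the DMSO libraries APLNR was 48.3 and 123 times the FPKM of APELA. In the IWP2 libraries APELA was 19.99 and 25.37 times the FPKM of APLNR. On the log2(FPKM + 1) scale, APLNR minus APELA was 5.42 and 6.63 with DMSO and -3.93 and -4.18 with IWP2. The means were 6.03 ± 0.85 (SD, n = 2) and -4.06 ± 0.18 (SD, n = 2), a change of -10.08. The exact two-sided permutation test gave p = 0.333, which is the smallest p that 2 libraries against 2 allow, and 0.333 after adjustment over the 3 comparisons between members. This permutation test therefore could not place any of these 3 comparisons under 0.05.

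APLNR minus APLN changed by -6.88 on the same scale, nearly all of it from APLNR. APELA minus APLN was 3.04 and 2.28 with DMSO and 5.86 and 5.88 with IWP2, a change of 3.21. The exact permutation p was again 0.333 for both. APELA was 106 and 63.0 times the FPKM of APLN with DMSO, and 1475 and 1300 times with IWP2. The order of levels was thus APLNR, APELA, APLN in both DMSO libraries and APELA, APLNR, APLN in both IWP2 libraries, and the gap between neighbours in the order was larger than the spread within each group.

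The genes next to each member on its chromosome were examined in the same libraries. LRRC55, the nearest to APLNR at a gap of 41874 bases, was at 0.618 and 1.01 FPKM with DMSO and 0.0154 and 0.0266 FPKM with IWP2, too low to be tested. On the same side, OR5AK4P was at 0.608 and 0.234 FPKM with DMSO and 0 in both IWP2 libraries, and OR5AK1P was at 0 in all 4. TNKS1BP1 and SSRP1, on the other side of APLNR, had log2 differences of 0.27 (limma, adjusted p = 0.116) and -0.15 (adjusted p = 0.340). P2RX3, also on that side, was at 0.166 and 0.125 FPKM with DMSO and 0.0252 and 0 FPKM with IWP2. OR5AK4P, OR5AK1P and P2RX3 were too low to be tested. Around APELA, SMIM31, RNU6-668P and RNU6-284P on one side were listed at 0 in all 4 libraries, and TRIM60P14, FAM218BP and NACA3P on the other were under 1 FPKM in all 4. Around APLN, OCRL, SMARCA1 and ZDHHC9 were tested and not called, with differences of -0.01, -0.07 and -0.27. RNA5SP513, XPNPEP2 and SASH3 were under 1 FPKM in all 4 libraries and were not tested. None of the 5 tested neighbours of the 18 was called, where 2104 of all 15980 tested genes were.

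The proteins that carry or end the signal of the receptor were counted as a list. Of 14 G protein subunits, arrestins and receptor kinases, all tested, 1 rose, 1 fell and 12 did not pass, where 5.81% of all tested genes rose and 7.35% fell, so that the share called was near that of all genes. The list had a median log2 difference of -0.13 beside -0.01 over all genes. GNAI1, a subunit of the inhibitory G proteins that APLNR couples to, fell. It was at 49.4 and 53.0 FPKM with DMSO and 29.96 and 26.81 FPKM with IWP2, a difference of -0.83 with an SE of 0.10 (limma, adjusted p = 0.00892). ARRB2, a beta-arrestin that binds activated receptors and ends their G protein signal, rose. It was at 21.8 and 22.8 FPKM with DMSO and 33.9 and 31.5 FPKM with IWP2, a difference of 0.53 with an SE of 0.09 (adjusted p = 0.0238, or 0.0508 without the intensity trend). The other inhibitory subunits GNAI2 and GNAI3 were at -0.06 and -0.12 and did not pass, nor did ARRB1 at -0.23 or the receptor kinases GRK2 and GRK5 at -0.42 and -0.44. GNA12 and GNA13 had the smallest differences of the list, within 0.02 of 0. Neither call of this list was made when any 1 of the 4 libraries was left out, or with no filter on low values.

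Of 8 proteases that process or break down apelin peptides, 7 were tested, 1 rose, 2 fell and 4 did not pass, with a median of -0.41. Over all tested genes 5.81% rose and 7.35% fell, and the list was not tested against these shares. FURIN, a proprotein convertase that can cut the APELA precursor, was at 41.9 and 36.6 FPKM with DMSO and 57.3 and 54.7 FPKM with IWP2. Its difference was 0.51 with an SE of 0.10 (limma, adjusted p = 0.0342, or 0.0725 without the intensity trend). MME, or neprilysin, a membrane peptidase that breaks down apelin, was at 22.5 and 26.9 FPKM with DMSO and 12.5 and 11.8 FPKM with IWP2. It fell by 0.96 on the log2 scale with an SE of 0.12 (adjusted p = 0.0105). KLKB1, plasma kallikrein, was at 3.49 and 3.67 FPKM with DMSO and 1.96 and 1.69 FPKM with IWP2. It fell by 0.70 with an SE of 0.15 (adjusted p = 0.0414, or 0.0511 after quantile normalization and 0.0688 with the replicate number as a block). PCSK7 and PRCP had the smallest differences, -0.18 and -0.41, and did not pass. PCSK1, another proprotein convertase, was below the minimum for testing. With 1 library left out, 0 to 1 of the falls and none of the rises was called, and with no filter on low values none of the 3.

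Of 13 downstream effectors, 11 were tested, none rose, 2 fell and 9 did not pass, with a median of -0.39. Among all tested genes 5.81% rose and 7.35% fell, and the list was not tested against these shares. HDAC5, a histone deacetylase that APLNR signaling moves out of the nucleus in endothelium, was at 21.5 and 23.8 FPKM with DMSO and 13.8 and 12.4 FPKM with IWP2. It fell by 0.75 on the log2 scale with an SE of 0.11 (limma, adjusted p = 0.0158). AKT1, a kinase activated by many receptors, was at 74.4 and 87.4 FPKM with DMSO and 45.7 and 38.7 FPKM with IWP2. It fell by 0.92 with an SE of 0.13 (adjusted p = 0.0135). MAPK3, a mitogen-activated kinase, and PLCB3, a phospholipase C that G proteins activate, had the smallest differences, -0.16 and 0.20, and did not pass. KLF2, a transcription factor downstream of APLNR in endothelium that is named after its values were seen, was at 1.01 and 2.00 FPKM with DMSO and 0.0450 and 0.340 FPKM with IWP2 (difference -1.05, adjusted p = 0.0716, or 0.0430 with the replicate number as a block). Neither fall of this list was called when any 1 library was left out, or with no filter on low values.

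Of 10 other receptors of the same broad class, 8 were under 1 FPKM in every library and were not tested. Both of the tested receptors fell, where 7.35% of all tested genes fell. CXCR4, the receptor of the chemokine CXCL12, was at 24.1 and 14.5 FPKM with DMSO and 3.92 and 4.40 FPKM with IWP2. It fell by 1.94 on the log2 scale with an SE of 0.25 (limma, adjusted p = 0.0109). ACKR3, an atypical receptor that takes up the same chemokine, was at 23.6 and 20.4 FPKM with DMSO and 3.65 and 5.49 FPKM with IWP2. It fell by 2.06 with an SE of 0.19 (adjusted p = 0.00487). The linear folds of the means were 4.64 and 4.81, beside 166 for APLNR. AGTR2, GPR15 and GPR25 were listed at 0 in all 4 libraries. With 1 library left out, 0 to 1 of the falls was called, and with no filter on low values neither.

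**Figure D3:**
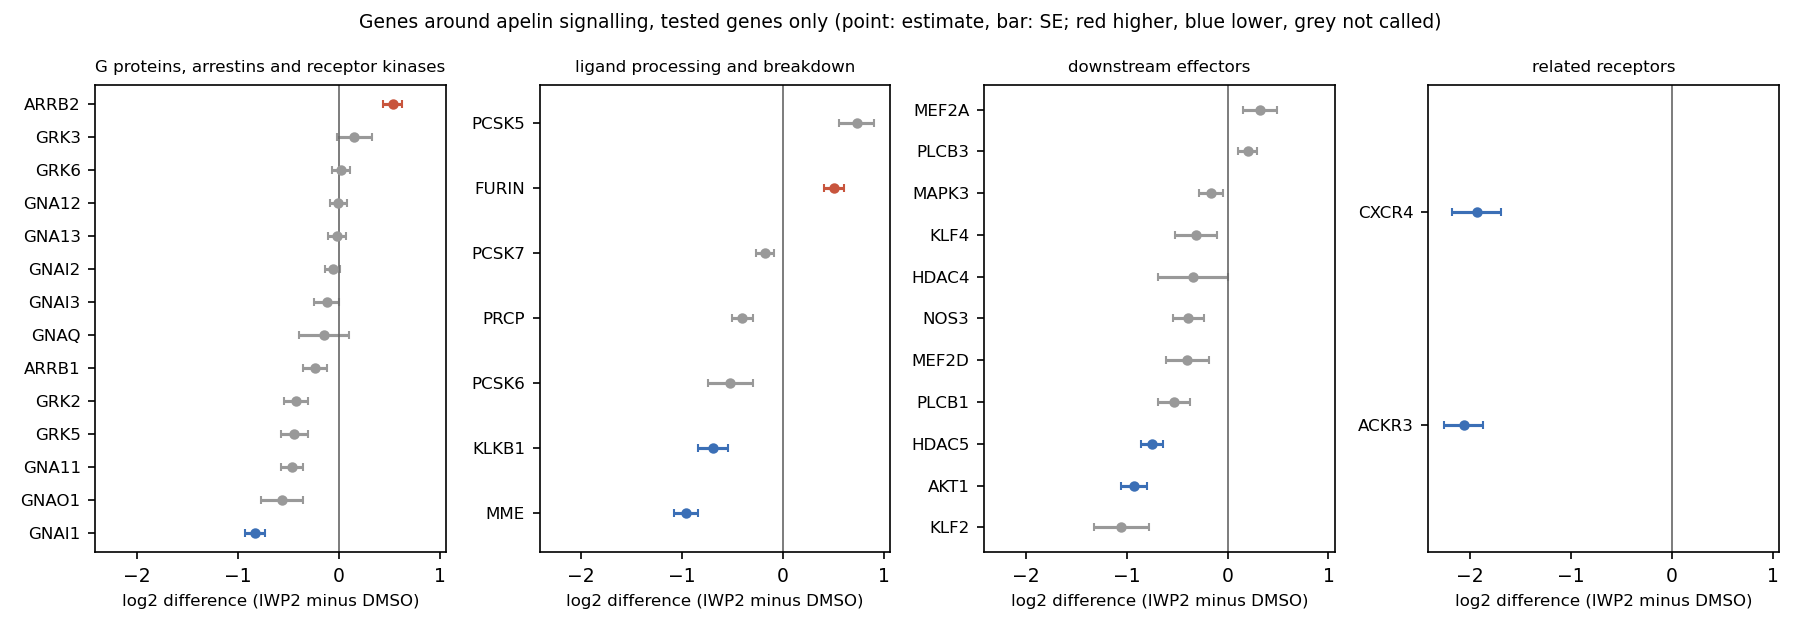
Log2 difference, IWP2 minus DMSO (horizontal axis), of each tested gene in the 4 lists around apelin signaling, with the estimate as a point and its SE as a bar, red for called higher, blue for called lower and grey for not called. Most genes lie within 1 of 0, and CXCR4 at -1.94 and ACKR3 at -2.06 are farthest from it.

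APLNR fell together with the genes of the mesoderm program. All 13 tested genes of the 14 in the primitive streak and mesoderm list fell, where 7.35% of all tested genes fell. The study had already reported EOMES, MESP1, GATA4, GSC and SNAI1 of this list as lowered when Wnt was inhibited. The falls of these genes were therefore known beforehand, and the count is not independent of that report. The median was -2.92, and MSGN1 was too low to be tested. MESP1, a factor of the earliest mesoderm, was at 47.6 and 74.6 FPKM with DMSO and 0.244 and 0.0870 FPKM with IWP2, a difference of -5.70 (limma, adjusted p = 0.000648). GSC and GATA4, factors of the anterior streak and of cardiac mesoderm and endoderm, had differences of -4.36 and -3.97 and both fell. T (brachyury), at -0.94, and KDR, a receptor of vascular growth factor on mesoderm, at -0.60, had the smallest differences of the list. T stayed at 9.40 and 10.4 FPKM with IWP2, beside 21.6 and 18.5 FPKM with DMSO. KDR was at 53.2 and 60.4 FPKM with DMSO and 38.6 and 35.7 FPKM with IWP2 (adjusted p = 0.0237, or 0.0524 without the intensity trend). The summed level of the list was 925 and 1146 FPKM with DMSO and 195 and 216 FPKM with IWP2. Between 4 and 11 of the 13 falls were called with 1 library left out, and 8 with no filter on low values.

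Genes of the Wnt response fell in 8 of 10 cases, with a median of -2.15, where 7.35% of all tested genes fell. SP5, a direct target of the pathway, was at 53.2 and 47.0 FPKM with DMSO and 0.379 and 0.363 FPKM with IWP2, a difference of -5.22 (limma, adjusted p = 0.000310). LGR5, a receptor that strengthens Wnt signals, and DKK1, a secreted inhibitor, fell, with differences of -4.54 and -4.24. RNF43 and ZNRF3, which remove Wnt receptors from the surface, were at -0.17 and 0.19 and did not pass. With any 1 library left out, 5 falls were called, and 6 were called with no filter on low values.

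Nodal and its co-factors were counted because APELA is known to shape Nodal-dependent mesendoderm in the embryo. Of 11 genes, all tested, 5 fell, 1 rose and 5 did not pass, with a median of -0.80. Among all tested genes 7.35% fell and 5.81% rose. CER1, a secreted Nodal antagonist, was at 1612 and 2048 FPKM with DMSO and 38.6 and 34.2 FPKM with IWP2. Its difference was -5.60 with an SE of 0.14 (limma, adjusted p = 0.000310). LEFTY1, a Nodal inhibitor, was at 97.0 and 57.1 FPKM with DMSO and 13.6 and 13.3 FPKM with IWP2, a difference of -2.39 (adjusted p = 0.00653). CFC1, a Nodal co-receptor, fell by 1.23. NODAL itself was at 0.10 and GDF1 at -0.03, the smallest differences, and neither passed. The other called genes, named after their values were seen, were the co-receptor TDGF1 at -1.06, the receptor ACVR2A at -0.90 and the ligand GDF3, which rose by 1.00. LEFTY1, CFC1 and TDGF1 have close copies in the genome that can share reads, so their values are less certain. With 1 library left out, 1 to 4 of the falls and no rise was called, and with no filter on low values 2 falls and no rise.

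APELA and most genes of the pluripotency list rose, but only SOX2 of that list rose as much as APELA. None of the 5 genes nearest to APELA in profile, given below, is in the list. LNCPRESS1 among them, however, is a noncoding RNA of pluripotent cells. Nearness mostly reflects a change of like size, so this absence does not set APELA apart from the list. Of the 10 genes of the pluripotency list, all tested, 7 rose, none fell and 3 did not pass, where 5.81% of all tested genes rose. The list median was 0.91. SOX2 was at 0.193 and 0.174 FPKM with DMSO and 35.6 and 36.1 FPKM with IWP2, a difference of 4.96 with an SE of 0.12 (limma, adjusted p = 0.000310). POU5F1, which encodes OCT4 and has close copies that can share reads, was at 751 and 571 FPKM with DMSO and 1854 and 1844 FPKM with IWP2, a difference of 1.50 (adjusted p = 0.00559). PRDM14, a repressor of differentiation, rose by 1.72. L1TD1 and LIN28A, RNA-binding proteins of pluripotent cells, were at -0.14 and -0.05 and did not pass. NANOG, named after its values were seen, was at 23.0 and 9.54 FPKM with DMSO and 33.6 and 27.5 FPKM with IWP2. Its difference of 0.98 did not pass either (adjusted p = 0.183). The summed level of the list was 1374 and 1197 FPKM with DMSO and 2686 and 2689 FPKM with IWP2. Between 1 and 5 of the rises were called with 1 library left out, and 4 with no filter on low values.

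**Figure D4:**
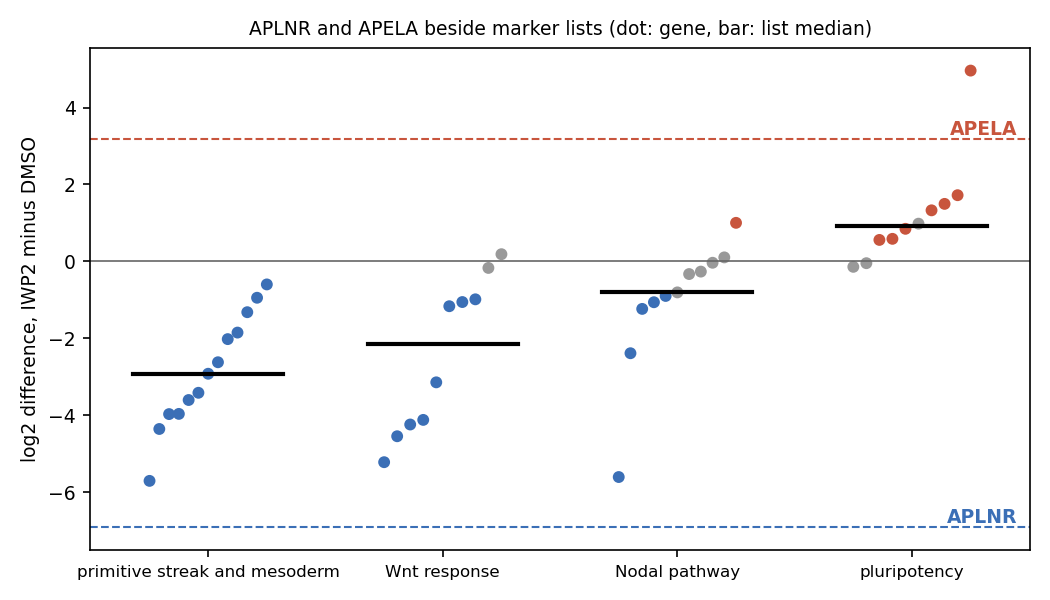
Log2 difference, IWP2 minus DMSO (vertical axis), of each tested gene in 4 lists, with dots in red for called higher, blue for called lower and grey for not called, black bars for list medians, and dashed lines at APLNR and APELA. On this log2(FPKM + 1) scale APLNR at -6.91 lies below every gene of the 4 lists, and SOX2 at 4.96 is the one gene above APELA at 3.17. The list medians are -2.92, -2.15, -0.80 and 0.91 from left to right. In linear folds of the means, MESP1 (370-fold) and LGR5 (271-fold) fell more than APLNR (166-fold).

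Markers of other cell types were counted in the same way, beside the 5.81% of all tested genes that rose and the 7.35% that fell. The summed level of 8 endothelial genes, where APLNR and APLN are known from the adult, was 12.4 and 8.13 FPKM with DMSO and 4.56 and 5.93 FPKM with IWP2. Of the 4 tested, TEK fell by 0.72 on the log2 scale (limma, adjusted p = 0.0479) and the others did not pass. The adjusted p of TEK was 0.0763 with the replicate number as a block. It was 0.0565 with a minimum of 2 FPKM and 0.0508 with median-ratio scaling. PECAM1 and CDH5 were under 1 FPKM in every library. The 6 blood genes summed to 7.16 and 5.15 FPKM with DMSO and 4.21 and 3.17 FPKM with IWP2. RUNX1 was the 1 of 2 tested blood genes that fell, by 1.43, and GATA1 was listed at 0 in all 4 libraries. The 5 definitive endoderm genes summed to 188 and 125 FPKM with DMSO and 84.1 and 100.1 FPKM with IWP2. Of the 4 tested, FOXA2, HHEX and CXCR4 fell, and SOX17, at -0.54, did not pass (adjusted p = 0.167). The 5 neural ectoderm genes summed to under 3 FPKM in each library, and neither of the 2 tested passed, although OTX1 was called lower without the intensity trend (difference -0.72, adjusted p = 0.0681, or 0.0266 without the trend). The 8 amnion and trophoblast genes summed to 118 and 108 FPKM with DMSO and 146 and 151 FPKM with IWP2. Of the 7 tested, KRT7 rose by 2.10, TFAP2A rose by 1.22, CDX2 fell by 2.42 and 4 did not pass. The part of shifts in cell type in the APLNR and APELA results was not tested. With 1 library left out, none of the endothelial and blood calls was made, 0 to 2 of the endoderm falls were, and 0 to 2 of the rises and 0 to 1 of the falls in the amnion and trophoblast list. Without the filter on low values, of these 5 lists 1 fall in the amnion and trophoblast list was called.

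Genes whose values followed those of each member most closely were ranked by the distance between centred log2(FPKM + 1) values over the 4 libraries, among 14021 other genes with a mean of at least 1 FPKM. A distance of 0 means the same profile, and with 4 libraries in 2 groups it mostly reflects a change of like size. The nearest to APLNR was GRP, which encodes gastrin-releasing peptide, at a distance of 0.334. It was at 155 and 165 FPKM with DMSO and 0.609 and 0.496 FPKM with IWP2, a log2 difference of -6.69. MESP1 (1.22), CER1 (1.31), the unnamed transcript AL139099.5 (1.31) and the Notch ligand DLL3 (1.36) followed.

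The nearest to APELA was CYR61, which encodes a secreted matrix protein, at a distance of 0.227. It was at 20.7 and 13.5 FPKM with DMSO and 136 and 143 FPKM with IWP2, a log2 difference of 2.99. LNCPRESS1, a long noncoding RNA of pluripotent cells, was at 0.476, TRBC2 at 0.490, AP002856.2 at 0.505 and IGFBP3, a binding protein of insulin-like growth factors, at 0.563. In CYR61 and in APELA alike, DMSO replicate 1 was above DMSO replicate 2 and the IWP2 libraries were close together. CYR61 was picked by its distance over these same 4 libraries, so this shared order is not separate support for likeness. APLN was too low for such a ranking to carry information, and none is given.

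**Figure D5:**
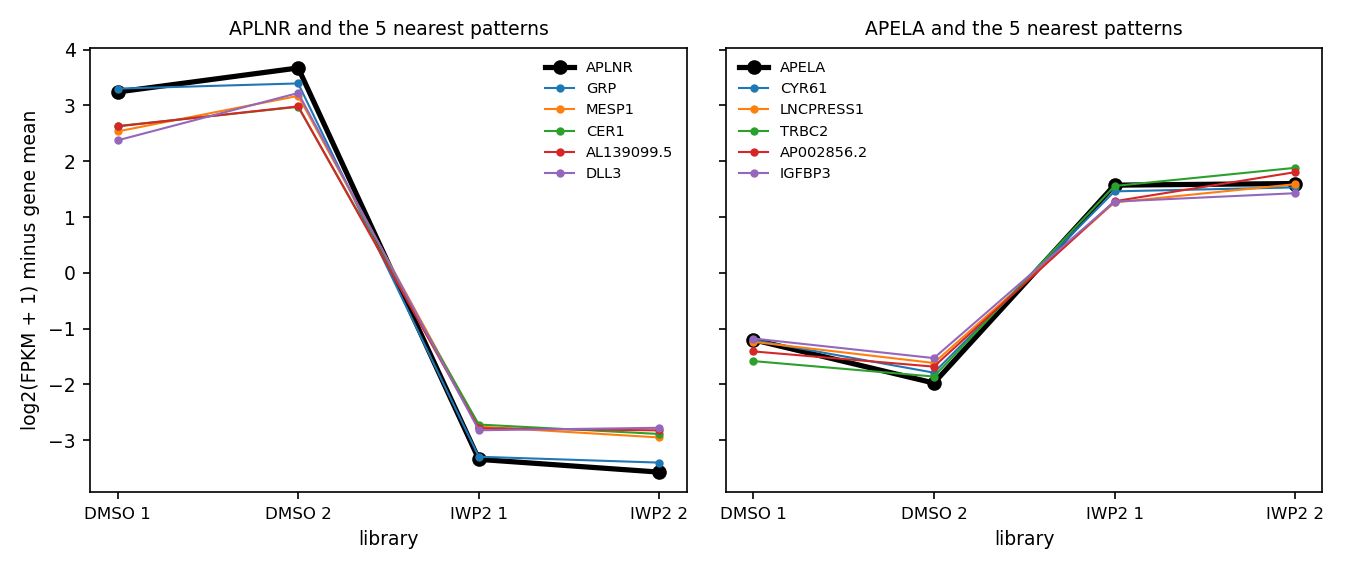
Log2(FPKM + 1) minus the mean of each gene over the 4 libraries (vertical axis) in each library (horizontal axis), for APLNR (left, black) and APELA (right, black) with the 5 genes nearest to each in colour, where lines only join the values of a gene. GRP at a distance of 0.334 lies almost on APLNR, and CYR61 at 0.227 almost on APELA.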

How the data were processed

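RNA-seq libraries (TruSeq, total RNA) were made from H1 cells treated with DMSO (n = 2) or IWP2 (n = 2). The authors deposited 1 table of gene levels without naming its unit, taken here as FPKM because the columns do not share a common total. The submitters' processing notes name BWA, Bowtie, RSEM and hg19, with no versions. The gene coordinates in the table are those of GRCh38: 56554 of the 58102 gene IDs shared with GENCODE release 29 (97.3%) have the same span. DMSO columns were headed as lacking IWP2, and their replicate numbers are those of the headings. As no read counts were used, depth and counting error are unknown.

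Genes with a mean of at least 0.5 FPKM over the 4 libraries were tested by limma 3.58.1 (R 4.3.3) with an intensity trend on log2(FPKM + 1), and adjusted by Benjamini-Hochberg. Comparisons between members used an exact permutation test (SciPy 1.17.1, Python 3.11.15). The fit was tested on simulated data. The alternatives were pseudocounts of 0.1 and 5, a minimum of 2 FPKM, no minimum, 3 scalings, no trend, a replicate block and each library left out. Of each gene list the 3 called genes with the largest difference and the 2 tested genes with the smallest were named, all genes of the G protein, protease and receptor lists could be, and the 5 nearest profiles and 3 neighbours on each side were. Exceptions are marked as named after their values were seen. Some genes of the lists are not reported here and were left out of the counts. The members and lists were chosen with earlier results of these data known. Promoter sequences are RefSeq's (GRCh38.p14), which held 2 of the 3 members.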

Additional observations from a re-analysis of the deposited data

How the results depend on the processing

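APLNR was called lower under all 13 alternatives (adjusted p 0.000122 to 0.0391), with log2 differences from -7.13 to -6.70 when 1 library was left out. APELA stayed higher in all 13 and was called in 10. It was 3.17 (adjusted p = 0.0608) with no filter on low values, where 28917 genes were tested, and ranged from 2.78 to 3.56 with 1 library left out, losing the call without either IWP2 library. The difference of APLN moved to -0.25 with a pseudocount of 0.1, -0.0076 with 5 and -0.057 after rescaling each library to the same total. The count of genes called was 118 higher and 263 lower with no filter. With 1 library left out it was 18 to 286 higher and 76 to 410 lower: 286 and 410 without DMSO replicate 1, 125 and 307 without DMSO replicate 2, 26 and 93 without IWP2 replicate 1, and 18 and 76 without IWP2 replicate 2. The calls of 92 genes besides the members, some of them not named above, were also followed through the alternatives. Of these 92, 51 were called in the main fit. Under some alternative 38 of the 51 lost the call, 33 of them only with a library left out or no filter. Another 4 gained a call under 1 alternative each: GNA11 with a minimum of 2 FPKM (adjusted p = 0.0410), PCSK5 (adjusted p = 0.0340) and OTX1 (adjusted p = 0.0266) without the intensity trend, and KLF2 with the replicate block (adjusted p = 0.0430).

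Libraries of the same number deviated together only weakly (r = 0.142 over 15980 genes). Mitochondrially encoded genes took 9.57% (DMSO) and 8.95% (IWP2) of the summed FPKM in replicates 1. In replicates 2 they took 6.25% (DMSO) and 6.92% (IWP2). The labels do not say whether libraries of the same number are pairs, and 2 of each number cannot settle it. With the replicate number as a block, 842 genes were called higher and 1059 lower, and both APLNR (adjusted p = 0.000758) and APELA (adjusted p = 0.00396) kept their calls. Of the 92 other genes followed, KLKB1 and TEK lost theirs.

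Reversals of sign were seen in 7 of these 92 genes, none of them called. GNA12 was 0.0190 with median-ratio scaling and 0.0337 with quantile normalization, GNA13 0.00296 and 0.0643, and OCRL 0.0105 and 0.0343. With 1 library left out, GNA12 ranged from -0.0363 to 0.0325, OCRL from -0.0638 to 0.0486, NODAL from -0.35 to 0.56, GDF1 from -0.32 to 0.25, RNF43 from -0.45 to 0.11 and ITGA2B from -0.19 to 0.69. The cause was not tested. The edgeR and DESeq2 alternatives were not run, since the table holds no counts.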
